A study of Mus musculus with 3 samples.

Results

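The genes described here are 10 genes of protein folding in the endoplasmic reticulum (ER): Calr and 9 others that encode chaperones and folding enzymes of the same compartment. They were taken by symbol, Calr, Canx, Hspa5, Hsp90b1, Pdia3, Pdia4, Pdia6, P4hb, Dnajb11 and Sdf2l1, and are 10 of the 24982 gene symbols in the deposited tables. All 10 were found and all 10 were among the 7984 genes abundant enough to be tested. The set was chosen by the counts of Calr in the CD73-deficient and wild-type libraries, so the difference of Calr between groups is a description with no test, and the question put to the data was whether the other chaperones followed it. RNA sequencing was done on LKS cells (lineage-negative, Kit-positive, Sca1-positive), a fraction of mouse bone marrow with the blood stem cells and the earliest progenitors. There were 2 libraries from wild-type recipient mice (WT) and 1 from recipient mice lacking CD73 (CD73-/-, the KO library), and the labels give no age, strain or further treatment. They also leave unsaid if donor or recipient cells were sorted and if each WT library was a different mouse, so the spread between the WT libraries may be technical.

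Proteins that enter the ER are folded there before they are sent to the cell surface or to granules. Calreticulin (Calr) and its membrane-bound relative calnexin (Canx) hold newly made glycoproteins by their sugar chains, together with the disulfide isomerase Pdia3. Hspa5 (BiP) binds unfolded stretches of other proteins with the help of co-chaperones, and Hsp90b1 (Grp94) takes over a smaller set of clients. When unfolded protein builds up, the sensors Atf6, Ern1 and Eif2ak3 start the unfolded protein response, which raises many of these genes through a promoter sequence, the ER stress response element. That element was first described in the promoters of Hspa5, Hsp90b1 and Calr. In blood cell progenitors, calreticulin and calnexin bind the precursor of the granule enzyme myeloperoxidase, and frameshift mutations of the human calreticulin gene cause myeloproliferative disease.

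The stretches before the start sites of 4 members are shown because they hold what Calr shares with the rest of the set and where members differ. Capitals mark the ER stress response element, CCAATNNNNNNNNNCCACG on either strand, and every CCAAT box, the site type of the factor NF-Y, on either strand. Each stretch is the 250 bases before the RefSeq start, read in the direction of the gene, from the RefSeq promoter table of GRCm38.p6 (the same assembly as mm10): Calr at chr8:84846932-84847181 on the minus strand, Canx at chr11:50325674-50325923 on the minus strand, Hspa5 at chr2:34771840-34772089 on the plus strand and P4hb at chr11:120573254-120573503 on the minus strand.
Calr: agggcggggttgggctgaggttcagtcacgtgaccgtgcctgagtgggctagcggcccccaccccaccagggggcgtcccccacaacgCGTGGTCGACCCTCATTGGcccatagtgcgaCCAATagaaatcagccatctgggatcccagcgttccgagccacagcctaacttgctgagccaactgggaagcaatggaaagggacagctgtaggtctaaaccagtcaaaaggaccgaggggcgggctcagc
Canx: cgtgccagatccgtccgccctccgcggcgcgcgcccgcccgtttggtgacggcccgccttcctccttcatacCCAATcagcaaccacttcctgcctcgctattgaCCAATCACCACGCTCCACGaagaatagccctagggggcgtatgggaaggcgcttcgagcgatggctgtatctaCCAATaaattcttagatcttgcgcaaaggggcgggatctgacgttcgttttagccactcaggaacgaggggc
Hspa5: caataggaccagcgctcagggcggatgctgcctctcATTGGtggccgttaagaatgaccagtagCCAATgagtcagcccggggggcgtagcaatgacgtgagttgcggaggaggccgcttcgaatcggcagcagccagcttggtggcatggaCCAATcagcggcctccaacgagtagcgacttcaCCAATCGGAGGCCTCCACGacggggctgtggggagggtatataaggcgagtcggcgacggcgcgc
P4hb: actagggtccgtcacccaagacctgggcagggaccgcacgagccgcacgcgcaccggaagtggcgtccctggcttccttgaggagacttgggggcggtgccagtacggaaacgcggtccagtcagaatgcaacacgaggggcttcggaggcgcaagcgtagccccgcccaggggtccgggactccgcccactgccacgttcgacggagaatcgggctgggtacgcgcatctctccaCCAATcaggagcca

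All 10 members matched a promoter window by symbol. The ER stress response element, 19 bases long, was found in 5 of the 10: Calr, Canx, Hspa5 and Pdia6 with 1 match each and Hsp90b1 with 2. Of all 32851 RefSeq promoter windows of the same length, 37 held it, or 0.113%. The element was first described in Calr, Hspa5 and Hsp90b1, so their matches were given in advance. Only the matches of Canx and Pdia6 were not. In Calr the match lay on the strand opposite to the gene, at positions -162 to -144 from the start, whereas in Canx it lay on the gene's own strand at -145 to -127 and in Hspa5 at -65 to -47. A CCAAT box, which is also the first part of the longer element, was found in all 10 windows against 33.8% of all windows, and 9 members held at least 2 boxes against 10.1%. P4hb was the member with 1 box. These matches describe letters in the window and not bound sites. Of the carriers of the element, Calr was the member with the highest KO level relative to WT and Canx the lowest, and P4hb, high in KO, had no match. The part of the element in these values was not tested.

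**Figure D1:**
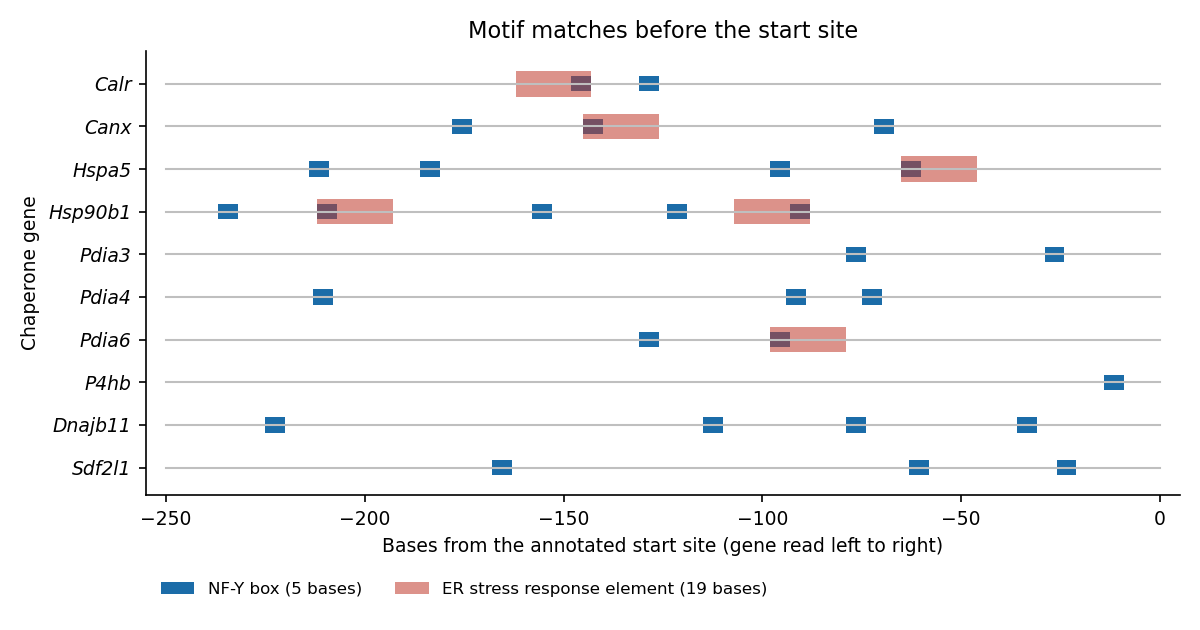
Motif matches in the 250 bases before the RefSeq start of each of the 10 genes, with distance from the start in bases on the horizontal axis and 1 line per gene. Wide red blocks are ER stress response elements and narrow blue blocks are NF-Y boxes. Red blocks are present for Calr, Canx, Hspa5, Hsp90b1 (2) and Pdia6.

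Depth was low. The gene counts of WT replicate 1, WT replicate 2 and KO summed to 361638, 324954 and 264704, so 1 count was worth 2.77, 3.08 and 3.78 CPM in that order. Levels are given as CPM, counts scaled to the same library total. Intervals are exact Clopper-Pearson intervals at 95% and stand for counting error alone, because copies made by PCR were not told apart from separate molecules. Nt5e, which encodes CD73, had 0 counts in each library and could not check the labels. Kit had 187, 207 and 147 counts and Ly6a, which encodes Sca1, had 60, 19 and 36, in the order WT replicate 1, WT replicate 2 and KO, which is kept throughout. In bulk RNA, fewer cells of a type and less RNA per cell cannot be told apart.

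Among the lectin chaperones, Calr was higher and Canx lower in KO than in either WT library. Calr (chromosome 8, 84841850 to 84846934, mm10) had 366, 311 and 634 counts, or 1012 (interval 911 to 1121), 957 (854 to 1070) and 2395 CPM (2212 to 2589). The KO library stood apart and the WT libraries lay close together. KO was 2.43 times the WT mean of 985 ± 38.9 CPM (SD, n = 2), and 2.37 and 2.503 times the single WT libraries. Canx (chromosome 11, 50293961 to 50325673) had 139, 107 and 38 counts, or 384 (323 to 454), 329 (270 to 398) and 144 CPM (102 to 197). Here KO was the low library, at 0.402 times the WT mean of 357 ± 39.0 CPM (SD, n = 2), and its counting interval did not meet those of WT. Pdia3 (chromosome 2, 121413775 to 121438687), the disulfide isomerase that works with both lectins, had 206, 172 and 89 counts, or 570, 529 and 336 CPM. It was also lowest in KO, at 0.612 times the WT mean of 549 ± 28.5 CPM (SD, n = 2). Catsper2 overlaps Pdia3 on the opposite strand and had 1, 0 and 28 counts. Whether counting used strand is not stated, so the reads of these 2 genes cannot be told apart.

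In the Hspa5 chaperone system, Hspa5, Hsp90b1 and Sdf2l1 had KO values near those of at least 1 WT library, and Dnajb11 was 2.16 times the WT mean of 83.8 ± 59.9 CPM (SD, n = 2). Hspa5 (chromosome 2, 34771970 to 34777547) had 185, 89 and 139 counts, or 512, 274 and 525 CPM. KO was level with WT replicate 1 (ratio 1.03), and WT replicate 2 was the low library. Hsp90b1 (chromosome 10, 86690209 to 86705509) had 156, 168 and 147 counts, or 431, 517 and 555 CPM, so KO was 1.17 times the WT mean of 474 ± 60.5 CPM (SD, n = 2), with overlapping counting intervals. Dnajb11 (chromosome 16, 22857845 to 22879634), a J-domain co-chaperone of Hspa5, had 15, 41 and 48 counts, or 41.5, 126 and 181 CPM. WT replicate 1 was the low library there, and KO was 4.37 times that library and 1.44 times WT replicate 2, with counting intervals that overlapped for WT replicate 2. Its transcript rows also disagreed in that library: the row that gave 15 counts stood beside rows with 1 and 0, whereas the 3 rows had 40, 34 and 41 counts in WT replicate 2 and 47, 47 and 48 in KO. Sdf2l1 (chromosome 16, 17130138 to 17132383), a partner of Dnajb11, had 34, 28 and 20 counts, or 94.0, 86.2 and 75.6 CPM, which lie within each other's counting intervals.

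The protein disulfide isomerases differed among themselves. P4hb (chromosome 11, 120560298 to 120573253), protein disulfide isomerase itself, had 230, 149 and 263 counts, or 636 (556 to 724), 459 (388 to 538) and 994 CPM (877 to 1121). KO was the high library, at 1.82 times the WT mean of 547 ± 125 CPM (SD, n = 2), 1.56 times WT replicate 1 and 2.17 times WT replicate 2. Pdia4 (chromosome 6, 47796141 to 47813430) had 36, 33 and 32 counts, or 99.5, 102 and 121 CPM, with overlapping intervals. Pdia6 (chromosome 12, 17266545 to 17284770) had 193, 48 and 87 counts, or 534, 148 and 329 CPM. The WT libraries of Pdia6 differed from each other 3.61-fold and KO lay between them.

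**Figure D2:**
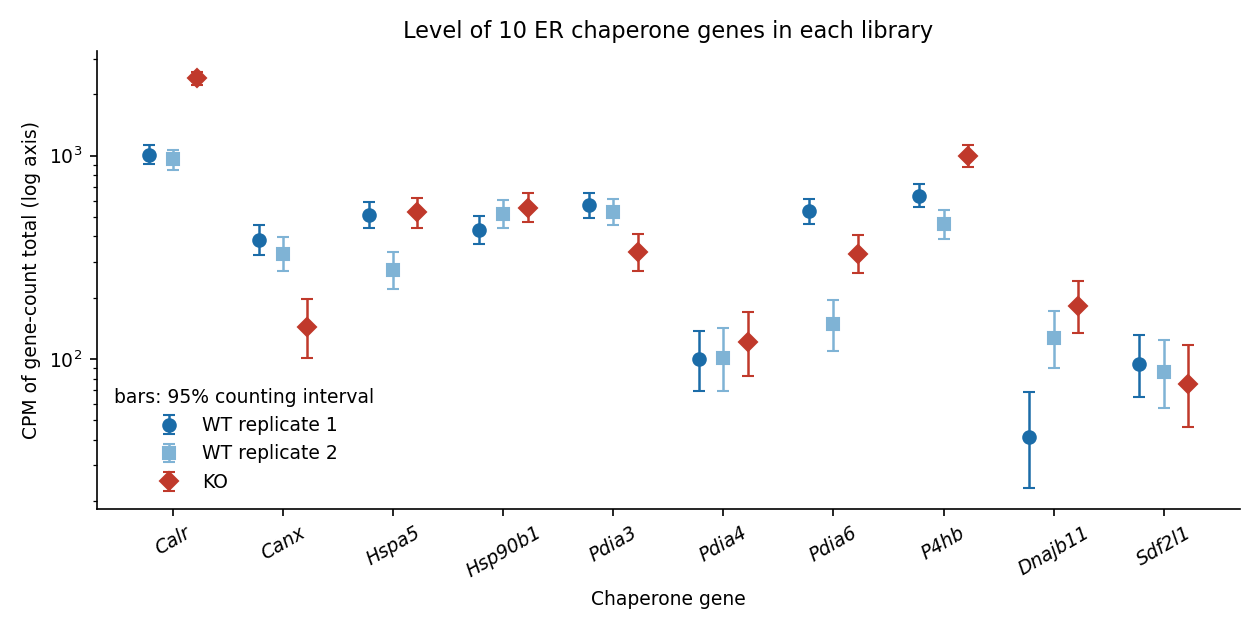
Level of each of the 10 chaperone genes in the 3 libraries, in CPM of the gene-count total on a log axis; points are single libraries and bars are 95% counting intervals. Calr and P4hb are highest in KO (2395 and 994 CPM) and Canx and Pdia3 lowest in KO (144 and 336 CPM), with KO intervals apart from those of both WT libraries.

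KO lay above both WT libraries in 6 of the 10 members (Calr, Hspa5, Hsp90b1, Pdia4, P4hb and Dnajb11), below both in 3 (Canx, Pdia3 and Sdf2l1) and between them in Pdia6. Without Calr, that is 5 of 9 above both and 3 of 9 below both. Over the 7984 tested genes KO lay above both WT libraries in 31.1% and below both in 38.2%. In the 5, KO over the higher WT library was 1.03 for Hspa5, 1.07 for Hsp90b1, 1.19 for Pdia4, 1.44 for Dnajb11 and 1.56 for P4hb. At least 1.5-fold above both stood Calr and P4hb, and at least 1.5-fold below both stood Canx and Pdia3. Without Calr, whose counts chose the set, that is 1 of 9 members above and 2 of 9 below, against 19.4% and 28.4% of all tested genes and 17.1% and 20.4% of the 3064 tested genes whose mean CPM lay in the range of the members. The median ratio of the higher to the lower WT library was 1.18 over the members, against 1.66 in those of the same 3064 genes with counts in both WT libraries. Pdia6 (3.61), Dnajb11 (3.04) and Hspa5 (1.87) lay above 1.66. Genes were not matched by count within the range, and counting error widens this ratio at low counts.

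In the fit across all genes, 0 of the 9 members other than Calr were called higher and 0 lower (edgeR quasi-likelihood test, Benjamini-Hochberg adjusted p from 0.58 to 0.995), and 0 of the 9 had an unadjusted p under 0.05. Over all tested genes, 0.1% were called higher and 0% lower, and 802 of the 7984, or 10%, had an unadjusted p under 0.05. The fitted log2 fold change of KO over WT was 1.32 (SE 0.34) for Calr, described without a test, and 0.90 (SE 0.51, edgeR adjusted p 0.58) for P4hb. It was -1.27 (SE 0.87, edgeR adjusted p 0.70) for Canx and -0.67 (SE 0.66, edgeR adjusted p 0.81) for Pdia3. The remaining 6 ranged from -0.21 for Sdf2l1 to 1.16 for Dnajb11, with SEs from 0.61 to 1.41. The median log2 fold change was 0.29 over the 10 members and 0.27 over the 9 without Calr, beside -0.31 over all tested genes and -0.02 over those in the members' CPM range. Without WT replicate 1 the median was 0.42 over the 10, 0.29 over the 9 and -0.12 over all tested genes, and without WT replicate 2 it was 0.18, 0.0656 and -0.10. The fit has 1 residual degree of freedom and assumes that the KO library varies like the WT pair, and differences of the size seen for P4hb and Canx did not pass it. Its test shares spread across all genes, so an SE need not follow the WT spread of its own gene. Pdia4, with WT libraries 1.02-fold apart, had an SE of 1.23. Pdia6, with WT libraries 3.61-fold apart, had an SE of 0.75. Permuting 1 library against 2 gives no p below 0.333.

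**Figure D3:**
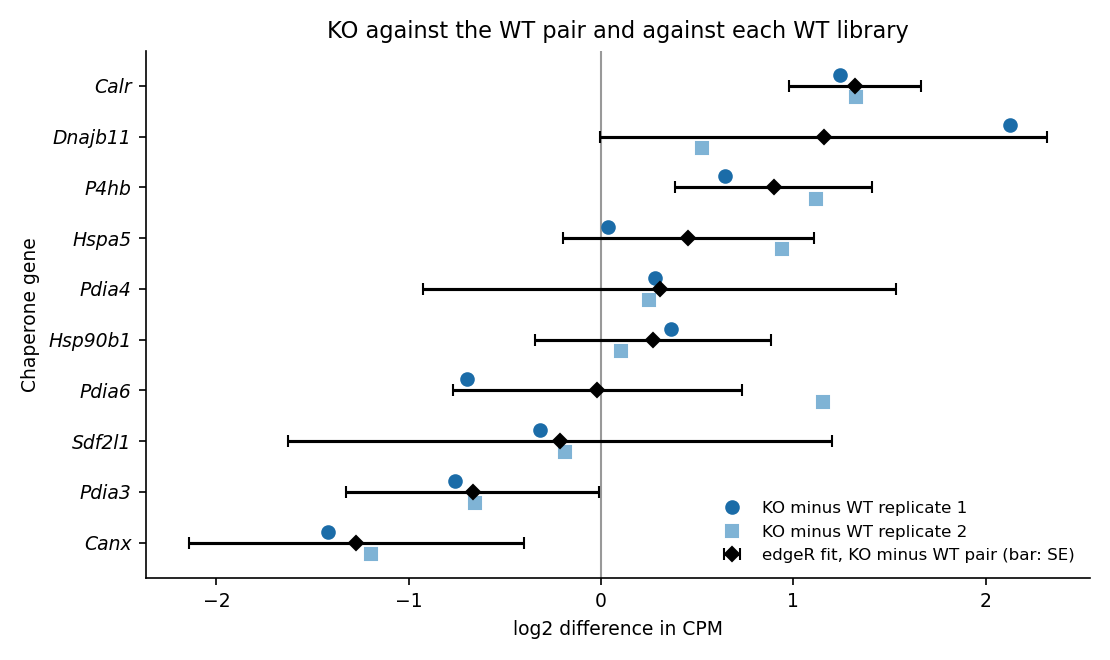
Difference of KO from WT in log2 CPM for each member, sorted by the fitted value. Diamonds with SE bars are the edgeR fit against the WT pair, circles and squares the plain difference from WT replicate 1 and WT replicate 2. The single-library points lie close together for Calr, Canx, Pdia3, Pdia4 and Sdf2l1 and on opposite sides of 0 for Pdia6.

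Calr took a larger part of the chaperone counts in KO, a description with no test because its counts chose the set. It made up 23.5% (interval 21.4% to 25.6%) of the counts of the 10 members in WT replicate 1, 27.1% (24.6% to 29.8%) in WT replicate 2 and 42.4% (39.8% to 44.9%) in KO. The summed level of the other 9 was 3302, 2570 and 3260 CPM, so KO lay inside the WT range once Calr was left out. The sum of all 10 was 4314, 3527 and 5655 CPM. These sums are of counts, in which longer transcripts weigh more.

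Calr was also set against its partners within each library. Ratios of counts within a library do not depend on how the library was scaled. The ratio of Calr to Canx was 2.63 (2.16 to 3.22), 2.91 (2.33 to 3.66) and 16.7 (12.0 to 23.8), nearly the same in the WT libraries and far higher in KO. The ratio of Calr to Pdia3 was 1.78 (1.49 to 2.12), 1.81 (1.496 to 2.19) and 7.12 (5.70 to 8.996), the same pattern. The ratio of Calr to P4hb was 1.59 (1.35 to 1.88), 2.09 (1.71 to 2.55) and 2.41 (2.08 to 2.79), in which the KO interval met that of WT replicate 2. The ratio of Calr to Hspa5 was 1.98, 3.49 and 4.56, with KO highest but the WT libraries themselves apart. The ratio of Hspa5 to Hsp90b1 was 1.19, 0.530 and 0.946, so KO lay between the WT libraries. Each ratio was formed after the values of its genes were known, and none was tested between groups.

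**Figure D4:**
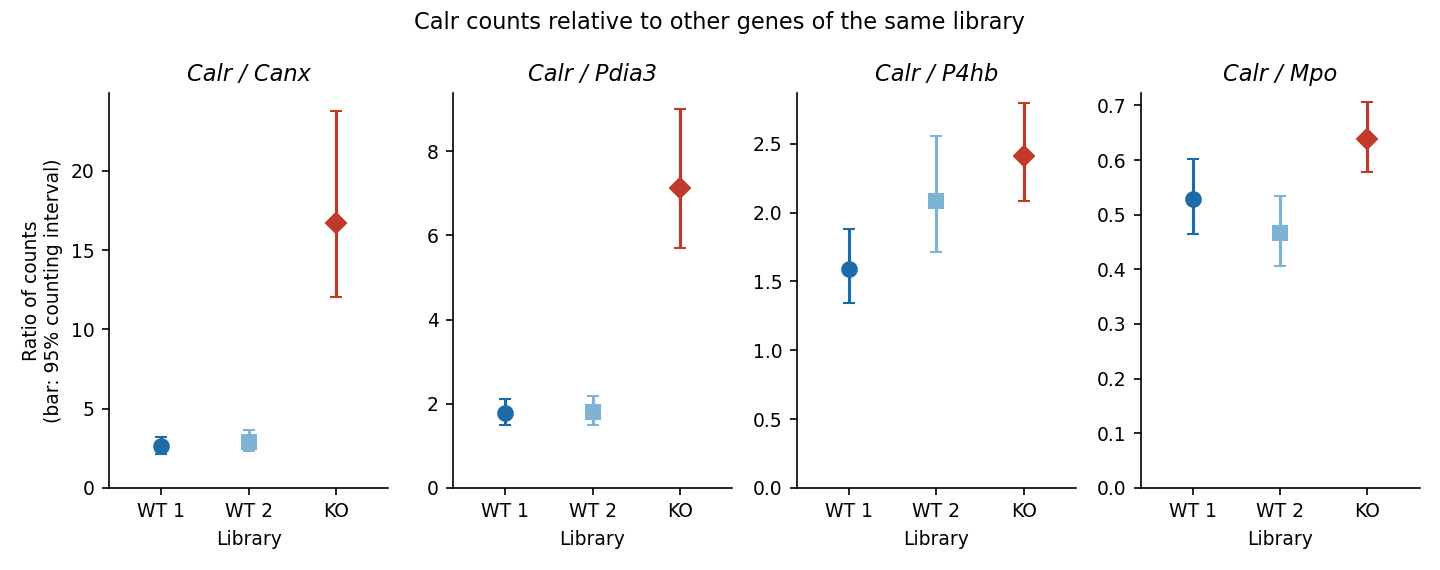
Counts of Calr divided by counts of Canx, Pdia3, P4hb and Mpo in the same library; each panel has its own linear axis from 0, points are libraries and bars are 95% counting intervals. The ratio to Canx is 2.63 and 2.91 in WT and 16.7 in KO. The ratio to Mpo, a gene ranked near Calr in these same libraries, ranges from 0.466 to 0.639.

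Levels of different genes were compared per transcript length, with the deposited FPKM, a read level scaled by transcript length and library size. In WT, Calr was the most abundant member by far, at 510 ± 19.2 FPKM (SD, n = 2). Then came Pdia3 at 209 ± 10.5, P4hb at 192 ± 43.8, Hsp90b1 at 173 ± 22.4, Pdia6 at 165 ± 132 and Hspa5 at 156 ± 66.4 FPKM, neighbours that did not differ beyond their spread. Canx at 84.4 ± 9.06 and Sdf2l1 at 81.8 ± 4.89 FPKM were also level with each other. Pdia4 had 41.0 ± 0.656 FPKM. Dnajb11 depended on how its rows were read, with 14.5 ± 8.88 FPKM in the row with the most counts and 48.5 ± 39.2 summed over its rows. In KO, Calr had 1250 FPKM and P4hb followed at 352. Canx, in 7th place in both WT libraries by FPKM summed over rows (90.8 and 78.0 FPKM), was in 10th and last place in KO at 34.2 FPKM. That last place depended on summing rows, because Dnajb11 had 10.2 FPKM in KO in its row with the most counts. Per length, Calr exceeded Canx 5.76-fold and 6.36-fold in WT and 36.5-fold in KO.

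The genes most like Calr across the 3 libraries were sought by the distance of centred log2(CPM + 1) values. Candidates were the 261 other genes that reached 200 counts in any library, after predicted genes, pseudogenes and mitochondrial genes were left out. The 5 nearest were Malat1, a nuclear noncoding RNA (555, 421 and 776 counts), Rab44, a large Rab GTPase (221, 190 and 472), Mpo, the myeloperoxidase of neutrophil granules (692, 667 and 992), H2-Q4, an MHC class I gene (337, 351 and 520), and Rps16, a ribosomal protein (280, 211 and 343). The reads of H2-Q4 and Rps16 may be shared with near-identical paralogs or pseudogenes, so their counts are uncertain. Their distances ran from 0.218 to 0.359. P4hb was 9th at 0.430 and Pdia3 was 214th at 1.62, while the other members fell short of 200 counts. With 3 libraries, such a ranking only says that these genes were high in KO by a like amount.

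The other genes of the secretory pathway were taken from 8 lists of 114 genes, of which 97 were tested. In these, 0 genes were called higher and 0 lower (edgeR, lowest adjusted p 0.21), and 12 of the 97 had an unadjusted p under 0.05, beside 10% of all tested genes. KO lay above both WT libraries in 26 of the 97 and below both in 43, or 26.8% and 44.3%, beside 31.1% and 38.2% of all tested genes. The median log2 fold change of the 97 was -0.46, beside -0.31 over all tested genes, and it was unchanged to 2 decimals with genes at 0 counts set to a bound of 3 counts over the group.

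In the calnexin and calreticulin cycle, with 8 tested genes, 4 fold changes were positive and 4 negative (median 0.01, and 0.12 and 0.15 without WT replicates 1 and 2). Ganab, the catalytic subunit of glucosidase II, which trims sugars so that the lectins can bind, had 189, 180 and 61 counts, or 538 ± 22.1 CPM (SD, n = 2) for WT against 230 for KO. Like Canx, it was lowest in KO, with an edgeR adjusted p of 0.62. Lman2, a cargo lectin, had 123, 123 and 49 counts, and Erp29, an ER folding factor, had 146, 39 and 141. Of the Hspa5 cofactors, 3 of 10 tested genes were positive (median -0.63, and -0.25 without WT replicate 2): Hyou1, its nucleotide exchange factor, had 74, 58 and 110 counts, Sec63, which recruits it to the translocon, 62, 81 and 42, and Sdf2, the close relative of Sdf2l1, 13, 8 and 60. Sdf2 is overlapped on the opposite strand by Supt6, with 83, 97 and 17 counts. Among the 12 tested genes of disulfide formation and proline isomerisation 4 were positive (median -1.04). The transmembrane thioredoxin Tmx1 had 25, 97 and 2 counts, its relative Tmx4 18, 71 and 16, and the isomerase Fkbp2 35, 17 and 39.

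The machinery that brings proteins into the ER gave mixed values. In the translocon, signal recognition and signal peptidase list, 9 of 20 tested genes were positive (median -0.35, and 0.00281 without WT replicate 2), and the abundant members were Ssr1 (110, 93 and 86 counts), Srp68 (43, 94 and 66) and Srp54a (36, 125 and 45). In the oligosaccharyltransferase, the enzyme that attaches the sugar chains read by Calr and Canx, 5 of 9 were positive (median 0.08, and 0.05 and 0.06 without WT replicates 1 and 2). Its subunits Rpn1 and Rpn2 stood on opposite sides, with 178, 147 and 60 counts for Rpn1 and 112, 108 and 165 for Rpn2, and Ddost had 160, 111 and 87. Of 13 tested genes of ER-associated degradation 4 were positive (median -0.91): the segregase Vcp had 142, 160 and 123 counts, the lectin Os9 209, 60 and 53, and Sel1l, the adaptor of the ubiquitin ligase, 25, 18 and 78.

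Of 12 tested regulators of the unfolded protein response, 4 were positive and 8 negative (median -0.72, and -0.07 without WT replicate 1). Atf4, the factor downstream of Eif2ak3, had 117, 40 and 35 counts, so that KO lay between the WT libraries in CPM. Atf6b, a relative of Atf6, had 29, 58 and 52, and Mbtps1, the protease that first cuts Atf6, had 34, 81 and 22. Among 13 tested genes of ER calcium handling 4 were positive (median -0.12, and -0.25 and -0.32 without WT replicates 1 and 2), and the calcium pumps Atp2a3 (212, 237 and 156 counts) and Atp2a2 (51, 60 and 45) both lay between the WT libraries in CPM.

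**Figure D5:**
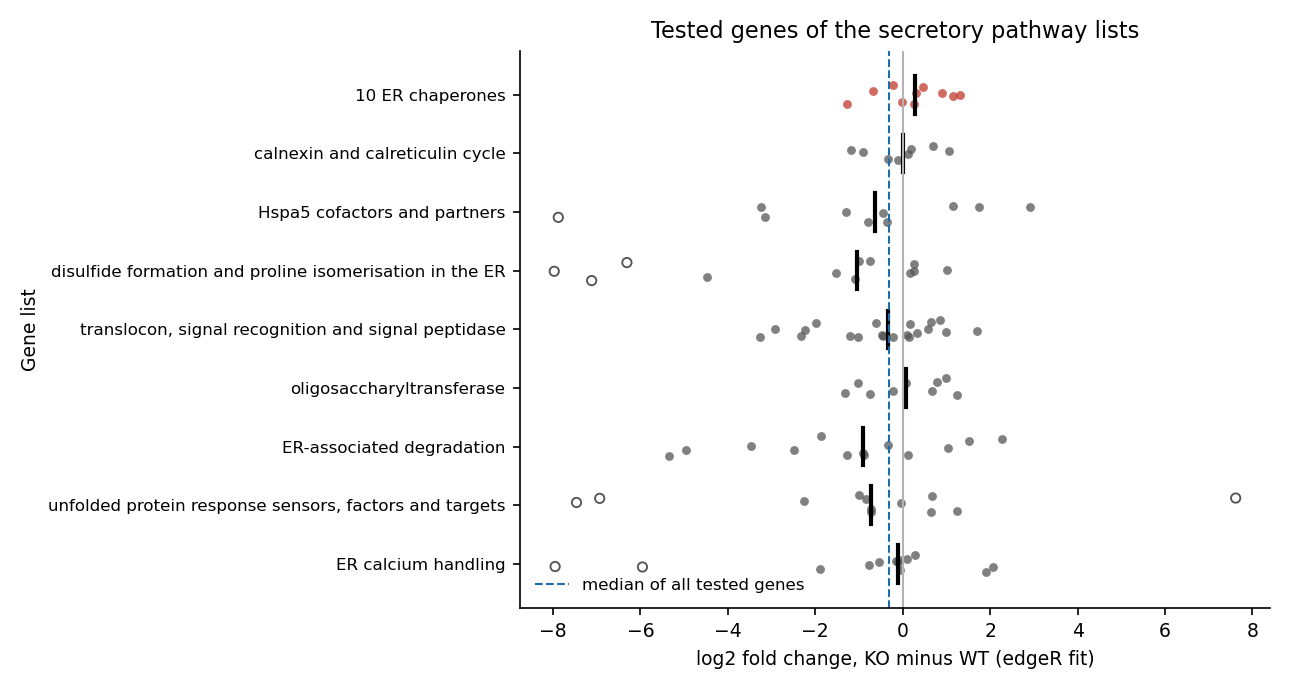
Fitted log2 fold change (KO minus WT, edgeR) of each tested gene, 1 point per gene, for the 10 ER chaperones (red) and the 8 secretory pathway lists (grey), with list medians as black bars and the median of all tested genes (-0.31) as a dashed line. Open circles are genes at 0 counts in a group, whose fitted values are no bounds; the chaperone median is 0.29 and list medians run from -1.04 to 0.08.

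Markers of other cell types differed between the libraries. Of 11 plasma cell markers 7 were in the tables, Sdc1, Irf4, Tnfrsf17 and Derl3 had 0 counts in every library, and the list summed to 27, 2 and 0 counts. The early granule list (Mpo, Elane, Prtn3, Ctsg, Ms4a3 and Prss57) summed to 3078, 3921 and 6298 CPM and was, like Calr, highest in KO. Its part in the Calr value was not tested. Calr counts per Mpo count were 0.529 (0.465 to 0.601), 0.466 (0.406 to 0.534) and 0.639 (0.578 to 0.707). Mpo was 3rd nearest to Calr among the 261 genes ranked above, so a narrow spread of this ratio follows from that nearness. Canx counts per Mpo count were 0.201, 0.160 and 0.0383. Elane, the neutrophil elastase, had 74, 212 and 273 counts (205, 652 and 1031 CPM), far apart in the WT libraries. Mature neutrophil markers summed to 827, 1114 and 378 CPM, monocyte and macrophage markers to 171, 625 and 321, erythroid markers to 683, 419 and 839 and dendritic markers to 299, 471 and 325. B lineage markers summed to 16.6, 64.6 and 7.56 CPM, T and NK markers to 194, 105 and 155 and stroma and endothelium markers to 257, 308 and 132, with 5 of 9, 6 of 9 and 6 of 10 at 0 counts in every library. The genes of the LKS gate summed to 1681, 1926 and 1322 CPM. Rn45s, the ribosomal RNA precursor, took 1.33%, 1.46% and 2.07% of the counts, highest in KO as well. The part of these differences in the chaperone values was not tested.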

How the data were processed

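RNA from sorted LKS cells was extracted with the RNeasy micro kit and made into libraries with NEB kits, per the labels' protocols. Sample titles gave the groups, with the series design text. Per the submitters' processing notes, STAR and the mm10 build were used, without versions or roles. Which tool counted, which estimated FPKM, with which annotation release and strand setting is not given in the sources used here. In the authors' deposited tables each RefSeq transcript has a whole-number count and an FPKM value. In single-row genes with at least 30 counts, the length implied by FPKM and count was within 20% of the annotated length for 85.6% to 85.9% of genes.

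The members and lists were chosen with earlier results of these data known. Each table held 42574 rows, all of them with 1 of 24982 symbols, and 8313 symbols had several rows. Rows of a gene repeat shared reads, so the gene count was the highest count over its rows, and CPM used the total of gene counts. The test was that of edgeR 4.0.16 (R 4.3.3) (filterByExpr, TMM, quasi-likelihood F-test, Benjamini-Hochberg over all 7984 tested genes, threshold 0.05). SE was taken from the fold change and F (its size over the root of F). The common biological coefficient of variation was 0.811. This test was tested on simulated data for KO against WT (5 simulations, 7310 to 7409 genes), where it recovered 24.4% of genes raised 4-fold, 97.6% raised 16-fold, and 5.26% and 32.5% of genes lowered to 0.25 and 0.0625 of their level. Recovery was measured on genes whose WT share came to at least 20 counts at the mean depth of the 3 libraries. The simulated spread was a set function of the mean count and was not fitted to these libraries, so the recovered shares are not the power of the present data.

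Genes named were all members, Nt5e, Mpo, Elane, the 3 most abundant tested genes of each list and any past the threshold, and the 5 genes nearest to Calr. Kit, Ly6a, Catsper2, Rn45s, Supt6 and the genes of the closing section outside that rule were picked with their values in view. Coordinates are from GENCODE M21 (mm10) and promoters from RefSeq (GRCm38.p6). Alternatives were DESeq2 1.42.0, other scalings and filters, the mean count over rows, FPKM, Rn45s left out and leaving out each WT library.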

Additional observations from a re-analysis of the deposited data

How the results depend on the processing

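None of the 9 members other than Calr passed the threshold in any of the 9 settings with a test, main setting included (lowest adjusted p 0.36, with DESeq2). The number of genes called over the whole table was 8 in the main setting and depended on the setting: 3 with upper-quartile factors, 4 with no filter on low counts, 1 with the mean count over rows and 0 without Rn45s (711 at an unadjusted p under 0.05), against 13 with DESeq2 on the tested genes and 131 with at least 10 counts in every library or 50 in any (27 higher, 104 lower). DESeq2 on the tested genes gave an adjusted p to 4114 of the 7984, so its 13 calls rest on a smaller set. DESeq2 on every gene with a count, added after the data were seen, called 0 (621 at an unadjusted p under 0.05). The cause was not tested. The median over the 9 members was 0.27 and moved to 0.0656 without WT replicate 2, against 0.29 without WT replicate 1. Calr ranged from 1.26 to 1.37 on the log2 scale over its 12 alternatives. Pdia6 turned from -0.02 to 1.17 without WT replicate 1 (-0.66 without WT replicate 2), to 0.23 and 0.24 with log2(FPKM + 1) and log2(FPKM + 0.1), and to 0.00198 with DESeq2 on every gene. Hspa5 was 0.97 without WT replicate 1 and 0.07 without WT replicate 2, and Dnajb11 0.55 and 1.998. Of the list medians, that of the calnexin and calreticulin cycle turned from 0.01 to -0.0314 with library totals only, and that of the translocon list from -0.35 to 0.00281 without WT replicate 2 (-0.48 without WT replicate 1). Summing FPKM over rows moved Dnajb11 from 8.25 to 76.2 in WT replicate 2 and from 10.2 to 111 in KO. No paired analysis was possible because the KO library carries no replicate number and there is only 1. Leaving out a WT library leaves no residual degree of freedom, so those are values with no test. Depth limits Dnajb11, Pdia4 and Sdf2l1 most, with 15 to 48 counts a library.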

Other observations

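Some genes of the secretory pathway lists outside the naming rule stood far from both WT libraries in KO, and were picked after their values were seen. In ER-associated degradation, Syvn1, the ubiquitin ligase that works in a complex with Sel1l, had 68, 51 and 1 counts (the WT libraries first, then KO), whereas Sel1l had 25, 18 and 78. Herpud1, a further part of that complex, had 65, 28 and 1 counts, and Edem1, which hands misfolded glycoproteins to it, had 32, 30 and 2. Manf, a secreted ER factor, had 31, 19 and 2 counts, and Tram1 and Sec11a of the translocon and signal peptidase had 65, 117 and 9, and 72, 58 and 5. Mrpl49 overlaps Syvn1 on the opposite strand (10, 17 and 4 counts), and Manf shares its locus with Dcaf1 (6, 7 and 3) and Rbm15b (13, 30 and 0). Ddit3, the stress factor Chop, had 0, 0 and 20 counts, 17.3-fold higher when 3 counts were put in place of 0 over the WT pair. The opposite-strand gene Mars had 68, 41 and 2. Ppp1r15a, a phosphatase subunit that ends the translation block, had 27, 21 and 0 counts and was 6.17-fold lower with 3 counts in place of 0 in KO. Both folds leave out the counting error of the observed counts. None passed the threshold (edgeR adjusted p from 0.21 to 0.69 over these 9 genes). Further genes of the lists with 0 counts in KO, such as Ppib, were not picked. Over all tested genes, KO lay at least 1.5-fold above both WT libraries in 19.4% and at least 1.5-fold below both in 28.4%. The picked genes all differed by more than 1.5-fold, so these shares are not matched to them.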
